A study of Mus musculus with 2 samples.

Results

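The cells described here are fibroblasts of mouse dorsal skin with at least 2 unique molecular identifiers (UMIs, each standing for 1 captured transcript) of Coch, which encodes the extracellular matrix protein cochlin. Members had at least 200 detected genes, at most 10% mitochondrial UMIs, at least 1% of UMIs from Col1a1, Col1a2, Col3a1 and Dcn, no Ptprc UMI and less than 0.2% of UMIs from Krt5 and Krt14. They also had fewer than 3 UMIs of Pi16, fewer than 3 of Col11a1, Lrrc15 and Acan together, and fewer than 2 of Corin. The rule found 189 members among 10484 cells of the fibroblast gate, that is, the cells that met every limit before Coch, Pi16, Col11a1, Lrrc15, Acan and Corin were applied, and 18796 cells in all passed the gene and mitochondrial limits. Of the members, 65 came from the control library and 124 from the IMQ library.

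The series held 1 droplet 3' single-cell RNA library for each condition, both from wild-type C57BL/6 mice 2 months old. The control library came from skin for which the labels name no agent, and the IMQ library from skin given imiquimod, a Toll-like receptor agonist used to produce psoriasis-like inflammation, on its surface once a day for 5 days. Skin was digested with collagenase D and DNase and dead cells were removed. How many animals entered each library is not given in the sources used here. With 1 library per condition no test of the treatment was possible, so library and treatment cannot be told apart. The intervals below are exact 95% intervals and cover counting error only.

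Fibroblasts of the dermis build the collagen and elastic matrix of the skin and differ by depth and by position around the hair follicle. Those with Pi16 are often described as progenitor-like cells, and those around the follicle carry Wnt and BMP regulators that take part in hair growth. Cochlin is best known from the inner ear, where it is abundant in the matrix. Cck encodes cholecystokinin, a peptide hormone of gut and brain, Fmod encodes fibromodulin, a small leucine-rich proteoglycan that binds collagen, and Cyp26b1 encodes an enzyme that clears retinoic acid. These 3 genes and Coch were given as the markers of the cells.

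Coch lies on chromosome 12 from 51593341 to 51605771 on the plus strand, Cck on chromosome 9 from 121489824 to 121495694 on the minus strand and Fmod on chromosome 1 from 134037254 to 134048277 on the plus strand (GENCODE M21, GRCm38). Cyp26b1 lies on chromosome 6 from 84571414 to 84593908 on the minus strand. The 250 bases before the RefSeq transcription start (GRCm38.p6) are shown for Coch, which chose the cells, for Cck and Fmod, which were found with it in the cells of highest Coch, and for Saa3 and Lcn2, which were among the genes most abundant in the IMQ members and not in the control members. They cover chr12:51593091-51593340 (plus strand), chr9:121495695-121495944 (minus strand), chr1:134037004-134037253 (plus strand), chr7:46715677-46715926 (minus strand) and chr2:32387740-32387989 (minus strand). Capitals mark matches to 6 motifs searched on both strands. They were the TATA box as TATAAA, the CCAAT box by its letters, the AP-1 motif as TGANTCA, the C/EBP motif as TTGCNNAA, the E-box as CACGTG and the NF-kappaB motif as GGGA followed by 4 free bases and CC. No match overlapped another in these windows.
Coch: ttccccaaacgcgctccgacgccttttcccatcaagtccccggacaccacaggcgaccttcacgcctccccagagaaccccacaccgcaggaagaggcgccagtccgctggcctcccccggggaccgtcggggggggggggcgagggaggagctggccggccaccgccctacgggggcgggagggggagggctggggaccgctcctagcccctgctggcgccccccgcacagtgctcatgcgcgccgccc
Cck: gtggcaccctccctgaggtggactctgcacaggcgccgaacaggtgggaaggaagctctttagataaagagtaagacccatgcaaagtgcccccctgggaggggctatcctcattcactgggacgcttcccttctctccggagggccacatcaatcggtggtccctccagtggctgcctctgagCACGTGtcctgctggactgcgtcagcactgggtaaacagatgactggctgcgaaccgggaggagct
Fmod: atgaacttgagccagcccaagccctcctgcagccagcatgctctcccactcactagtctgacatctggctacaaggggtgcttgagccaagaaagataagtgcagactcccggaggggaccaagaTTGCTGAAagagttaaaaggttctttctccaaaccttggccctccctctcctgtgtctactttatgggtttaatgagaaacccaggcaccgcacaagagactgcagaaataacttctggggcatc
Saa3: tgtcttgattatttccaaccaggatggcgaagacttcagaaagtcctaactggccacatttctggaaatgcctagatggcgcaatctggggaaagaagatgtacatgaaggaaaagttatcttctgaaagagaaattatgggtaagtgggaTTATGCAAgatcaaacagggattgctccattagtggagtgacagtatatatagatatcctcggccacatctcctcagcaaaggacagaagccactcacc
Lcn2: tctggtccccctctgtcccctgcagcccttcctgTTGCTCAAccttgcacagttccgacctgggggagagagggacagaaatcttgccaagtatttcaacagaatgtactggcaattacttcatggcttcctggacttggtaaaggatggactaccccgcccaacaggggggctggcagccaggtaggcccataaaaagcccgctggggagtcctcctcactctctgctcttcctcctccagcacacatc
The Coch window held none of the 6 motifs. The Cck window held 1 E-box, which 6.02% of 32841 promoter windows of this length held. Fmod, Saa3 and Lcn2 each held 1 match to the C/EBP letters, found in 9.57% of all windows. A match describes letters only.

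In the control library 0.943% of the fibroblast gate were members (65 of 6894 cells, 0.728 to 1.20%, Clopper-Pearson). In the IMQ library the share was 3.45% (124 of 3590 cells, 2.88 to 4.10%), 3.66 times that of the control (2.69 to 5.03). Of all cells that passed, members were 0.631% and 1.46%, a ratio of 2.31 (1.70 to 3.17). IMQ members were deeper, with a median of 17766 UMIs per cell against 5409 in the control, while the other fibroblasts of the gate had 13069.5 and 9575. With every fibroblast thinned to 5000 UMIs, and 1092 control and 348 IMQ cells too shallow left out, the shares were 0.635% and 3.0%, against 0.655% and 3.70% before thinning in cells of that depth. Without the Pi16, Col11a1, Lrrc15, Acan and Corin limits, cells with at least 2 Coch UMIs were 2.26% of control and 11.6% of IMQ fibroblasts, a ratio of 5.15. With at least 2% of UMIs from the collagen genes and Dcn in place of 1%, the ratio was 5.80. The 2 libraries shared 23 barcodes, and none of these was a member.

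Most members held little Coch, and a few held most of it. Control members had 2 to 134 Coch UMIs with a median of 5, and IMQ members 2 to 152 with a median of 4. Cells with 8 or more, 25 control and 39 IMQ members, carried 88.3% and 74.9% of their library's member Coch UMIs. Just inside the limit, 20 control and 36 IMQ members had exactly 2 Coch UMIs. Just outside it, 35 control and 84 IMQ cells that met every other limit had 1. Summed over members, Coch was at 1990.5 CPM (UMIs of a gene per 1000000 UMIs of the cells summed) in the control and 513 CPM in IMQ, and at 30.7 and 183 CPM in the other fibroblasts, that is, the cells of the gate that were not members. The rule set a number of Coch UMIs whatever the depth of the cell, so these levels depend in part on it. Of the 1183 Coch UMIs of control members, 643 lay in 7 cells of cluster 7, the cluster with the highest Coch level. IMQ had no member in that cluster, so the levels are not read as a difference between libraries. Cells gated as keratinocytes held 0.182 and 0.262 CPM of Coch at median depths of 19001 and 34362 UMIs in control and IMQ, and cells gated as leukocytes 0.637 and 0.397 CPM at 4154 and 4992 UMIs.

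The 4 markers did not travel together in the members. Cck was found in 9 of 65 control members at 190.1 CPM (157 to 229), but as 1 UMI in 1 of 124 IMQ members, 0.458 CPM (0.0116 to 2.55). Fmod was found in 12 of 65 control members at 459 CPM and in 4 of 124 IMQ members at 11.5 CPM, where 84% of its UMIs lay in 1 cell. In IMQ the level of Fmod in the other fibroblasts, 33.7 CPM, was above that in the members, with 615 of its 1618 UMIs in 19 cells of cluster 7, the cluster with the highest Coch level. In the control the other fibroblasts likewise held cells of cluster 7, with 129 of their 168 Cck and 481 of their 1024 Fmod UMIs. Cyp26b1 was the most widespread of the 3, in 86.2% of control and 50.8% of IMQ members, at 725 and 181 CPM, against 221 and 76.8 CPM in the other fibroblasts. At 5000 UMIs per cell, Cyp26b1 was found in 78.9% and 35.8% of members and in 26.9% and 14.7% of other fibroblasts. Cck and Fmod therefore did not mark the IMQ members, which are called here by the rule alone, fibroblasts with 2 or more Coch UMIs. The receptor genes of cholecystokinin, Cckar and Cckbr, had no UMI in the members or the other fibroblasts of either library. The exact intervals allow up to 5.52% of control and 2.93% of IMQ members with a UMI.

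**Figure D1:**
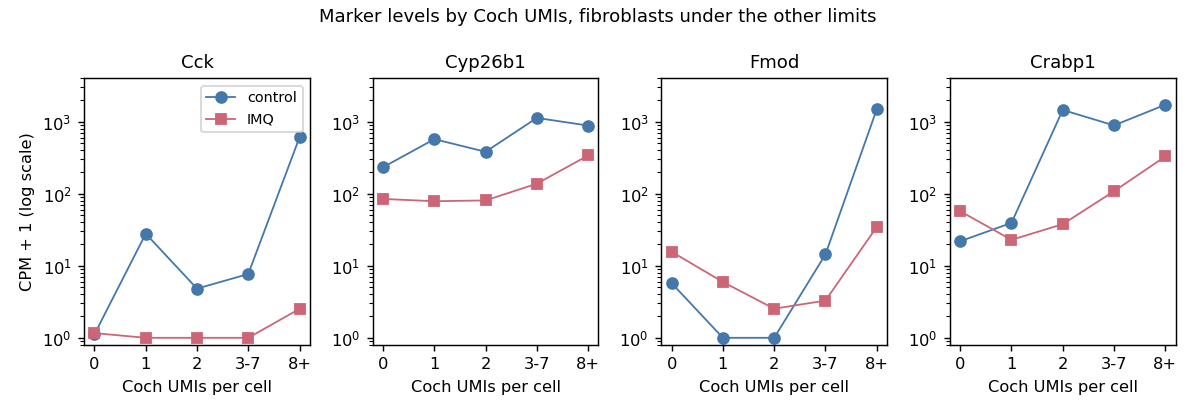
Levels of Cck, Cyp26b1, Fmod and Crabp1 (CPM + 1, log scale) summed over fibroblasts that met every limit except Coch, by Coch UMIs per cell, in the control (circles) and IMQ (squares) library. Control cells with 8 or more Coch UMIs stood at 606 CPM of Cck and 1481 CPM of Fmod, and the IMQ cells at 1.52 and 33.5 CPM.

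Cck and Fmod of the control members lay mostly in the cells with 8 or more Coch UMIs, as the plot of levels by Coch UMIs shows. In the control, Cck stood at 3.82 CPM in members with 2 Coch UMIs, at 6.69 in those with 3 to 7 and at 606 in those with 8 or more. Fmod was at 0, 13.4 and 1481 CPM in the same bins. In IMQ, Cyp26b1 was at 79.9 CPM in members with 2 Coch UMIs, close to the 83.9 CPM of the 1054 cells with none, and at 339 CPM in those with 8 or more. Crabp1, which encodes a cellular retinoic acid binding protein, went from 36.9 to 107 and 329 CPM over the 3 IMQ bins. In the control it was at 1459, 889 and 1721 CPM, and at 248, 121 and 1756 CPM without 5 deep members of cluster 11, a cluster led by keratinocyte genes.

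The fibroblast gate was divided into 24 clusters without the 13 genes of the rule, and the members of the 2 libraries fell mostly into different ones. Of the control members, 48 lay in cluster 6, led by Dkk2, Id1, Cyp26b1, Aqp1, Gldn, Enpp2 and Crabp1. Another 7 lay in cluster 7, led by Fmod, Cck, Crabp1, Edn3 and Kera, 5 in cluster 11, 3 in cluster 10 and 2 in cluster 8. Of the IMQ members, 74 lay in cluster 4, led by Saa3, Cpxm1, Ctla2a and Cxcl12, and 21 in cluster 9, led by Hp, Prg4 and Lcn2. These 2 clusters held 5 and 5 control fibroblasts in all, so the clusters are nearly those of 1 library. A further 20 IMQ members lay in cluster 8, led by Tnc, Slpi, Fcgr2b, Ccl8 and Crabp1, and 4 lay in cluster 6. Cluster 10 held 3 IMQ members, and clusters 1 and 17 held 1 each. No cluster held 20 members of each library. This split depends in part on the limits other than Coch. Cluster 6 held 110 control and 38 IMQ cells of the gate with at least 2 Coch UMIs, of which 48 and 4 were members. In cluster 8 these cells numbered 5 and 88, of which 2 and 20 were members, and in cluster 4 they numbered 0 and 185, of which 0 and 74 were members.

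**Figure D2:**
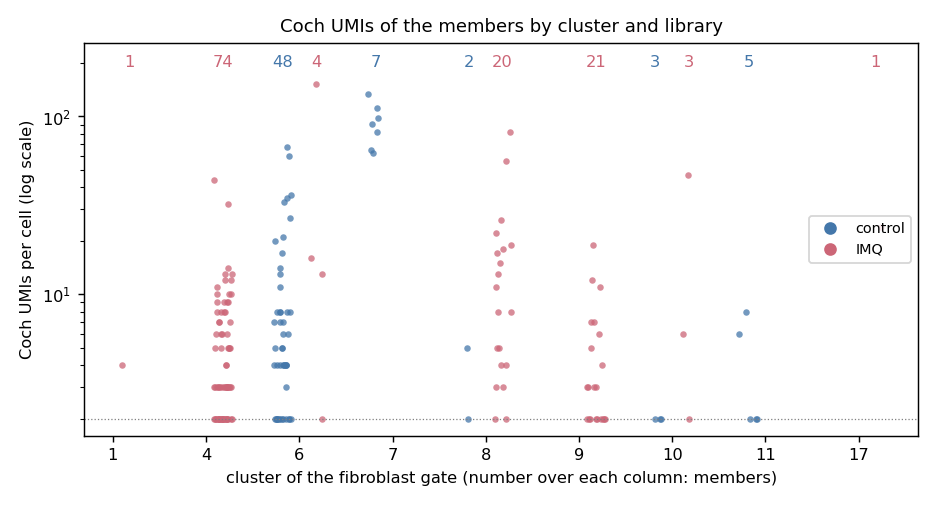
Coch UMIs per cell (log scale) of the 189 members by cluster of the fibroblast gate, control and IMQ side by side, 1 point per cell and the number of members above each column. The 7 control members of cluster 7 had 62 to 134 Coch UMIs, and the 74 IMQ members of cluster 4 had a median of 3.

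Coch levels spanned a wide range between clusters. Among control members Coch was at 13165 CPM in cluster 7 (12167 to 14223), at 1898 CPM in cluster 6 and at 84.5 CPM in cluster 11. Among IMQ members it was at 4694 CPM in the 4 cells of cluster 6, 1469.8 CPM in cluster 8, 309.6 CPM in cluster 4 and 206 CPM in cluster 9. In cluster 6, 1 cell held 152 of the 183 Coch UMIs and 29 of the 41 Cyp26b1 UMIs. Cyp26b1 and Crabp1 followed a like order in IMQ. Cyp26b1 stood at 1052, 819, 114 and 16.3 CPM in clusters 6, 8, 4 and 9, and Crabp1 at 1180.0, 1024, 31.8 and 0 CPM. Dkk2, which encodes a secreted Wnt antagonist, was at 621 CPM in control cluster 6, at 109 CPM in IMQ cluster 8 and at 0 in the members of IMQ clusters 4 and 9. Saa3, an acute phase gene, was at 35904 CPM in IMQ cluster 8 and 33726 CPM in cluster 4, and at 0 in the control members of clusters 6, 7 and 11. In the 4 IMQ members of cluster 6, all but 1 had no Saa3 UMI.

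**Figure D3:**
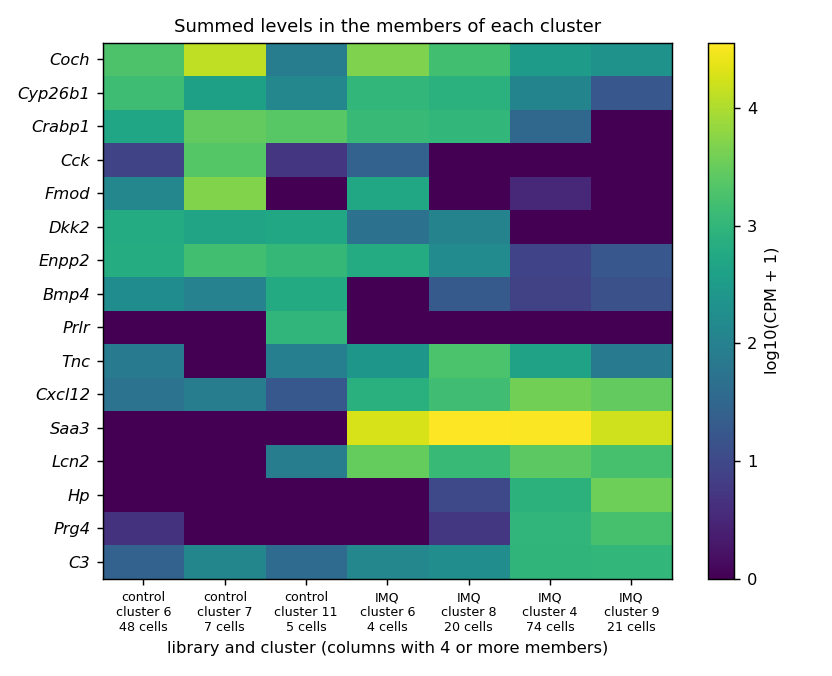
Levels of 16 genes, as log10 of CPM + 1, summed over the members of each library and cluster with 4 or more members, with the number of cells under each column. Among IMQ columns Coch, Cyp26b1 and Crabp1 were higher in clusters 6 and 8 than in 4 and 9. Saa3 was between 16614 and 35904 CPM in all 4 columns, but in cluster 6 it came from 1 of 4 cells. Control Crabp1 was at 2341 CPM in cluster 11 and 494 CPM in cluster 6.

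Cluster 11 was led by keratinocyte genes (Krt77, Lgals7, Krt1). Its 5 control members had a median of 47661 UMIs (41843 to 54777) and held 39.8% of all control member UMIs, and 1 of them was called a doublet. Keratinocyte markers other than Krt5 and Krt14 summed to 1682 CPM in these 5 cells and 173 CPM in the other 60 control members. Dermal papilla markers other than Corin (Alx4, Sox2, Prom1, Rspo3, Hhip) summed to 186 and 13.98 CPM. Prlr, the prolactin receptor gene, and Slc26a7, an anion transporter gene, were found in these 5 control members alone. Counts of gene lists between the libraries are therefore also given without them.

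Among all fibroblasts of the gate, the genes whose levels per cell ran most like Coch included Crabp1, Trps1, Megf6, Dkk2, Enpp2, Plxdc1 and Gpm6b. They were ranked by the lower of the 2 libraries' Pearson correlations, among genes found in at least 5% of members of each library. That limit left out Cck and Fmod, found in 0.806% and 3.23% of IMQ members. For Crabp1 the correlation was 0.500 over 6894 control cells and 0.570 over 3590 IMQ cells, and for Gpm6b it was 0.308 and 0.293. The cells of a library share depth and free RNA, so these values are descriptions. Trps1 encodes a GATA-type repressor active in hair follicle development, and Enpp2 encodes autotaxin, which makes lysophosphatidic acid.

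Set against the other fibroblasts of the same library, the members were 2-fold or more higher for 58 genes in both libraries (0.493% of 11771 with at least 50 UMIs in each comparison) and lower for 201 (1.71%). With at least 10 UMIs expected in the members at equal levels, 6 genes were higher (0.109% of 5529) and 110 lower (1.99%). The members were chosen from these counts, so what follows describes them and tests nothing. Higher genes at 50 CPM or more in both sets of members were Cyp26b1, Crabp1, Ifitm1, Tnc, Sox11, the agouti gene a, Ccl19 (ENSMUSG00000071005) and H2-Q7. Crabp1 was 46.4-fold higher in control members (42.8 to 50.3) and 3.43-fold higher in IMQ members (3.04 to 3.85), and 25.7-fold in the control without the 5 cells of cluster 11. Cyp26b1 was 3.28-fold and 2.36-fold higher. Tnc, which encodes the matrix glycoprotein tenascin C, was 10.9-fold and 2.89-fold higher. Agouti, a secreted antagonist of melanocortin signalling made in the dermis, was 19.7-fold higher in control members but 1.68-fold without the 5 cells, which held 94.9% of its UMIs. Ifitm1 had 83.4% and Sox11 73.8% of their control UMIs there. Ccl19 and H2-Q7 have near-identical copies, so their counts are uncertain.

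The genes furthest lower in the members of both libraries were the Wnt binding protein genes Sfrp4 and Sfrp2, Smpd3, the BMP antagonist gene Chrdl1, Inmt, the transcription factor gene Ebf2, the microfibril gene Mfap5, Ifi27l2a, the eosinophil attractant gene Ccl11 and Tmem100. Sfrp2 was at 6.73 CPM in control and 11.5 CPM in IMQ members, against 319 and 200.3 CPM in the other fibroblasts. Mfap5 was at 37.02 and 176 CPM against 466 and 814 CPM. Markers of Pi16 fibroblasts other than Pi16 itself (Dpp4, Anxa3, Cd55, Sema3c) summed to 131 and 433 CPM in members and 886 and 807 CPM in the other fibroblasts. The rule kept every cell over the Pi16 limit out of the members. Such cells were 2908 of 6829 control and 2134 of 3466 IMQ other fibroblasts. Members were not compared with the other fibroblasts under that limit. The part of the limit in levels lower or higher than in the other fibroblasts was therefore not tested.

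Some gene lists were lower or higher in the members than in the other fibroblasts of their library. Of control members, with at least 10 UMIs expected, complement genes were lower for 9 of 10 and higher for 0, acute phase and antimicrobial genes lower for 4 of 4, and matrix proteases and their inhibitors lower for 11 of 22 and higher for 1, where 9.7% of 5545 genes were lower and 8.44% higher. Hair follicle mesenchyme genes were higher for 4 of 7 and lower for 1 in control members. In IMQ members they were higher for 1 of 13 and lower for 7, where 6.3% of 9658 genes were lower and 0.922% higher. Acute phase and antimicrobial genes were higher for 5 of 12 and lower for 1 in IMQ members. Cell cycle genes were lower for 11 of 23 and higher for 0 in IMQ members, where 0 of 2 measured genes were called in control members. The monocyte and lymphocyte chemoattractants were lower in both, for 6 of 8 in control and 8 of 13 in IMQ members, and higher for 0. All these control counts, those of hair follicle genes among them, include the 5 cells of cluster 11 and are not given without them. Dermal papilla markers summed to 186 CPM in those cells and 13.98 CPM in the other control members.

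Between the libraries, 5711 genes had at least 50 UMIs over the members, and 693 of these were 2-fold or more higher in IMQ (12.1%) and 771 lower (13.5%). Without the 5 cells of cluster 11 the counts were 672 and 766 of 5355 (12.5% and 14.3%). Of the genes called with all members, 546 of the 693 and 531 of the 771 were called again without these cells. In the other fibroblasts 1341 genes were higher (10.1% of 13342) and 737 lower (5.52%). The median log2 ratio over all genes was -0.11 in members and 0.25 in other fibroblasts. Because members of the 2 libraries lay in different clusters, a difference between libraries and a difference between clusters cannot be told apart in these values. Only clusters 6, 8 and 10 held members of both, 53 control and 27 IMQ cells, of which 48 control cells were in cluster 6 and 20 IMQ cells in cluster 8. Within these clusters 127 of 1766 genes were higher in IMQ (7.19%) and 203 lower (11.5%).

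**Figure D4:**
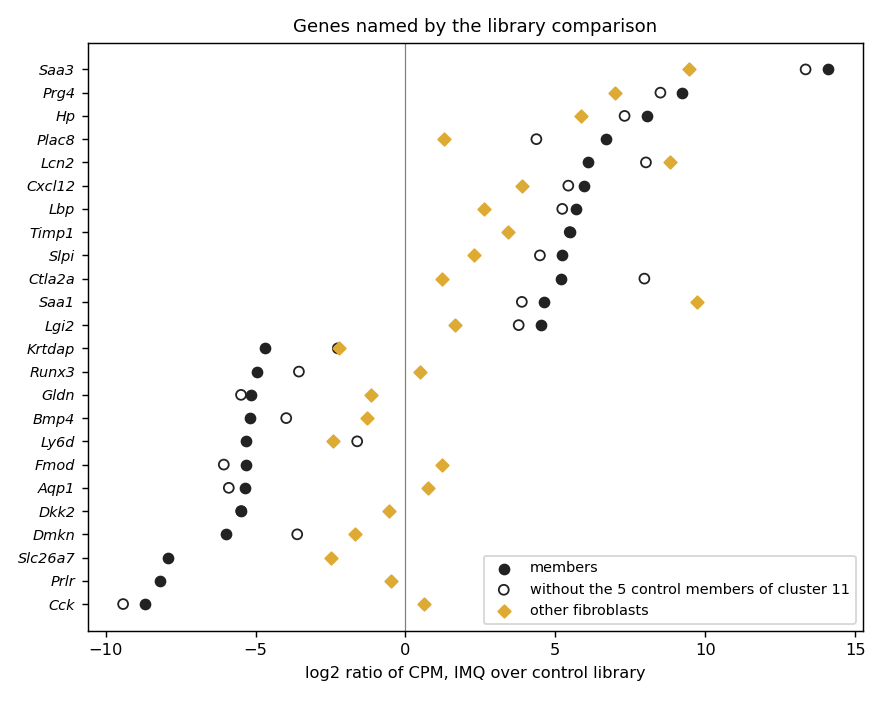
Log2 ratio of CPM, IMQ over control library, for the 12 genes furthest higher and the 12 furthest lower in IMQ members, in all members (filled circles), without the 5 control members of cluster 11 (open circles) and in the other fibroblasts (diamonds). A gene with 0 UMIs in 1 library is set at 3 UMIs there, and Prlr and Slc26a7 have no open circle because no UMI of them was left.

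The genes furthest higher in IMQ members were led by acute phase and antimicrobial genes. Saa3 was found as 1 UMI in 65 control members and at 29119 CPM in IMQ members, in 113 of 124 cells, a log2 ratio of 14.08 against 9.45 in the other fibroblasts. Hp, which encodes the haemoglobin scavenger haptoglobin, had no UMI in control members and stood at 1330.2 CPM in IMQ members, at least 264-fold higher against a floor of 3 UMIs over the group. Hp was uneven, found in 36 of 124 IMQ members with 23.1% of its UMIs in 1 cell, and at 3579 CPM in cluster 9 but 9.10 CPM in cluster 8. Lcn2, which encodes an iron-siderophore binding protein, was at 31.97 CPM in control and 2179.7 CPM in IMQ members, 68.2-fold (43.6 to 113) higher, and all 19 of its control UMIs lay in the 5 cells of cluster 11. Lbp, the lipopolysaccharide binding protein gene, was 51.99-fold (29.7 to 101) higher. Prg4, the lubricin gene, stood at 1.68 and 1015 CPM, and Slpi, a protease inhibitor gene, at 0 and 188 CPM with 36.3% of its UMIs in 1 cell. Saa1 was at 0 and 124 CPM.

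The other genes furthest higher were Cxcl12, Timp1, Ctla2a, Lgi2 and Plac8. Cxcl12, a chemokine gene that acts on cells with Cxcr4, was at 52.2 CPM in control members and 3260.2 CPM in IMQ members, 62.5-fold (43.99 to 92.1) higher, and 14.8-fold higher in the other fibroblasts. It was found in 18 of 65 and 117 of 124 members. Timp1, which encodes an inhibitor of matrix metalloproteinases, was 44.5-fold (28.7 to 72.9) higher and was found in 12 and 113 members. Ctla2a, a cysteine protease inhibitor gene, was 36.8-fold (26.3 to 53.1) higher, and 251-fold (85.7 to 1216) without the 5 cells of cluster 11, which held 91.2% of its 34 control UMIs. Plac8 had 1 control UMI, in those 5 cells, and was at 173 CPM in IMQ members.

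With all members counted, every measured gene of the acute phase, complement and chemoattractant lists was 2-fold or more higher in IMQ members. This did not hold for the acute phase and complement lists in the shared clusters, given below. Of the measured genes, 12 of 12 acute phase and antimicrobial genes were 2-fold or more higher (median log2 ratio 4.92), as were 10 of 10 complement genes (2.61), 6 of 6 neutrophil chemoattractants and growth factors (2.56) and 8 of 8 monocyte and lymphocyte chemoattractants (2.44), beside 12.1% of all genes. Without the 5 cells the counts were 12 of 12, 10 of 10, 6 of 6 and 5 of 8. In the other fibroblasts they were 13 of 14, 9 of 18, 5 of 11 and 10 of 16. Il6 was at 42.1 and 555 CPM in control and IMQ members, Cxcl1 at 106 and 727, Ccl7 at 384 and 2615, and the complement gene C4b at 79.1 and 1252. Macrophage, T cell and neutrophil markers stayed low in these members, while mast cell markers in IMQ members were above those of the other fibroblasts. Macrophage and monocyte markers summed to 3.37 and 5.96 CPM with C1qa and Ms4a7 at 0 in both, T cell markers to 0 in both, and neutrophil markers to 1.68 and 30.2 CPM. Mast cell markers summed to 1.68 and 61.9 CPM, against 8.80 and 0.646 CPM in the other fibroblasts. Cluster 17, whose leading genes included the mast cell markers Mcpt4 and Cma1, held 1 IMQ member, of 2600 UMIs. The part of these leukocyte markers in the result was not tested. Of 12 interferon response genes 0 were higher and 1 was lower (1 and 1 of 9 without the 5 cells), and of 11 NF-kB feedback genes 2 were higher and 0 lower with or without them.

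Matrix genes were more mixed. Of 18 elastic fibre genes 12 were higher in IMQ members and 1 lower (11 and 1 without the 5 cells), among them Efemp1 at 58.9 and 537 CPM and Fbn1, the fibrillin gene, at 316 and 918 CPM. Of 24 matrix proteases and inhibitors 16 were higher and 3 lower (12 and 3 without the 5 cells), with the collagen-degrading cathepsin gene Ctsk at 991 and 4167 CPM. Of 14 matricellular genes 8 were higher and 3 lower (8 and 2 of 13 without the 5 cells). Of 15 collagens 2 were higher and 4 lower (1 and 4 without the 5 cells). Col14a1, which encodes a collagen that associates with fibrils, was at 18.5 CPM in control and 290.1 CPM in IMQ members, and Col15a1 at 241 and 98.97 CPM. Lum, the lumican gene, was 3.64-fold (3.33 to 3.995) higher and was found in 54 of 65 and 123 of 124 members.

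The genes furthest lower in IMQ members included secreted regulators of Wnt and BMP signalling. Dkk2 was at 528 CPM in 47 of 65 control members and 11.9 CPM in 10 of 124 IMQ members, 44.3-fold (29.7 to 68.96) lower, with 44.6-fold without the 5 cells and 1.45-fold in the other fibroblasts. Aqp1, the water channel gene, was 40.7-fold (21.98 to 83.7) lower in members, at 205 and 5.04 CPM. Gldn, which encodes gliomedin, was 35.5-fold (21.8 to 61.3) lower. Bmp4, a BMP ligand gene, was 36.7-fold (22.9 to 62.3) lower, or 15.7-fold (9.10 to 28.3) without the 5 cells. Runx3, a transcription factor gene, was 30.8-fold (17.3 to 59.7) lower, or 11.7-fold (5.78 to 24.98) without them. Cck and Fmod belong to this group with log2 ratios of -8.70 and -5.33. Dkk2, Aqp1 and Gldn were among the leading genes of cluster 6. The limits other than Coch left 4 of 38 IMQ cells of cluster 6 with at least 2 Coch UMIs as members, against 48 of 110 control cells. IMQ members held no cell of cluster 7. Within cluster 7 Dkk2 was 2.53-fold (1.91 to 3.38) higher in IMQ cells. Gldn was 1.13-fold lower there, with an interval that includes equality, and Cck and Fmod were 1.68-fold and 1.28-fold lower.

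The remaining 5 genes of that group had most of their control UMIs in cluster 11. Its 5 cells held all control UMIs of Prlr and Slc26a7, 88.3% of those of Dmkn, 95.4% of Ly6d and 88.8% of Krtdap, the last 3 being genes of the epidermis. Without these cells Dmkn was 12.2-fold (4.24 to 39.6) lower, Krtdap 4.78-fold (2.43 to 9.25) lower and Ly6d 3.05-fold (0.939 to 8.78) lower, where the interval of Ly6d reaches equality. Igfbp3 was at 1232 CPM in all control members and 22.4 CPM without the 5 cells, and at 296 CPM in IMQ members, so that its direction turned. Serpine2, Pappa2 and Col23a1 turned in the same way, on 1 to 6 control UMIs left, with intervals that reach equality.

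By list, 8 of 10 measured hair follicle mesenchyme genes were lower in IMQ members and 0 higher (5 of 7 and 0 without the 5 cells), beside 13.5% of all genes. In the other fibroblasts 7 of 20 were higher and 3 lower. Of 9 Wnt ligands and modulators 7 were lower and 2 higher (5 and 1 of 7 without the 5 cells). Wif1, a secreted Wnt inhibitor gene, was at 261 and 10.5 CPM in members, and Fgf10 at 62.3 and 6.42 CPM. Within cluster 7 Wif1 was 2.17-fold (1.56 to 3.06) higher in IMQ cells. There 2 of 3 measured genes of the Wnt list were higher and 0 lower, beside 6.15% and 6.01% of all genes. Of 14 BMP ligands and antagonists 5 were higher and 6 lower (median log2 ratio -0.51), but 6 and 4 of 13 (0.86) without the 5 cells. Id1, a target of BMP signalling, was at 217 and 10.1 CPM, and the BMP antagonist gene Grem1 at 13.5 and 104 CPM. Of 10 genes of the insulin-like growth factor list 5 were lower and 0 higher, but 2 and 1 of 8 without the 5 cells. Of 10 retinoid genes 5 were lower and 2 higher (4 and 1 of 9 without the 5 cells). The retinoic acid binding protein gene Crabp2 was at 99.3 and 0.916 CPM, and at 16.8 CPM in control members without the 5 cells.

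For the other lists the counts are given with all members and then without the 5 cells, beside 12.1% of all genes higher and 13.5% lower with all members and 12.5% and 14.3% without them. Adipocyte precursor markers were higher for 4 and lower for 3 of 13, then 6 and 0 of 11. Tendon and fibrous connective tissue genes were higher for 4 and lower for 3 of 11, then 4 and 6 of 11. Fibroblast growth factors were higher for 0 and lower for 3 of 6, then 0 and 1 of 5. Small leucine-rich proteoglycans were higher for 4 and lower for 1 of 9, then 3 and 1 of 9. Adipogenic and lipid genes were higher for 5 and lower for 1 of 14, then 6 and 2 of 14. Genes of the TGF-beta list were higher for 1 and lower for 5 of 13, then 2 and 4 of 12. Hyaluronan genes were higher for 1 and lower for 1 of 6, then 2 and 1 of 6. Neuropeptides and peptide hormones, Cck among them, were higher for 2 and lower for 3 of 5, then 2 and 2 of 4. Glycolysis and hypoxia genes were higher for 3 and lower for 1 of 19, then 3 and 1 of 19. Immediate early and dissociation stress genes were higher for 0 and lower for 4 of 23, then 1 and 4 of 23. The cell cycle list was higher for 0 and lower for 1 of 3, then 0 and 1 of 3. In the other fibroblasts 30 of 33 cell cycle genes were higher in IMQ.

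Markers of other cell types moved with the library in the members. Keratinocyte markers summed to 774 CPM in control members (173 without the 5 cells) and 62.3 CPM in IMQ members, against 654 and 188 CPM in other fibroblasts. Dermal papilla markers summed to 82.4 (13.98 without the 5 cells) and 5.50 CPM, with 4 of 5 at 0 in IMQ. Papillary fibroblast markers, Crabp1 among them, summed to 1841 (1009 without the 5 cells) and 241 CPM, against 176 and 144 CPM in other fibroblasts. Perivascular fibroblast markers, Cxcl12 and C3 among them, summed to 323 (453 without the 5 cells) and 4418 CPM. Most of the IMQ sum was Cxcl12, a gene already named above as higher in IMQ members. In other fibroblasts the perivascular markers likewise went from 1055 to 3966 CPM. The perivascular marker Vtn was at 0 in the members of both libraries, and Gdf10 and F3 were at 0 in control members without the 5 cells. Melanocyte markers summed to 5.05 and 60.5 CPM with Dct and Tyrp1 at 0 in both, adipocyte markers were at 0 in both, and endothelial markers summed to 5.05 and 3.21 CPM with Pecam1 and Cdh5 at 0. Their part in the library differences was not tested.

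In the shared clusters fewer genes of each list were measured. Complement genes were higher for 1 and lower for 1 of 5 there, with a median log2 ratio of 0.30, and elastic fibre genes higher for 5 and lower for 0 of 13, beside 7.19% and 11.5% of all genes. Acute phase and antimicrobial genes were higher for 3 of 4 and lower for 1, monocyte and lymphocyte chemoattractants higher for 4 of 4, matrix proteases and inhibitors higher for 7 of 15 and lower for 1, and hair follicle mesenchyme genes higher for 1 and lower for 1 of 5. Crabp1, 9.13-fold (8.03 to 10.4) lower in all IMQ members and 5.04-fold (4.28 to 5.93) lower without the 5 cells, was 2.20-fold (1.78 to 2.73) higher in IMQ members there.

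Most Coch of the fibroblast gate lay outside the members. Members held 35.5% of the Coch UMIs of control fibroblasts and 11.3% of those of IMQ fibroblasts. Cluster 7, the cluster of highest Coch level, held 58.8% and 40.3%. It had 18 control and 19 IMQ cells, 0.261% and 0.529% of the gate, a ratio of 2.03 (1.01 to 4.10). Coch ranged from 22 to 184 UMIs per cell in the control (median 116.5) and from 84 to 393 in IMQ (median 192). Fmod was found in all 37 cells, with 11 to 75 UMIs in the control and 3 to 77 in IMQ, and Cck in 14 of 18 and 16 of 19 cells. Cyp26b1 was found in 12 of 18 and 19 of 19 cells, so the 4 markers stood together in this cluster in both libraries. It was clustered on these genes other than Coch, so this is a description.

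None of the 19 IMQ cells of cluster 7 was a member, because each had 3 or more Pi16 UMIs. Pi16 ran from 3 to 65 UMIs with a median of 13 in the IMQ cells and from 0 to 8 with a median of 0.5 in the control cells, of which 3 were over the limit. A further 8 control cells, and 9 of the IMQ cells also over the Pi16 limit, exceeded the limit on Col11a1, Lrrc15 and Acan. The 7 control members of the cluster held 54.4% of all control member Coch UMIs and 110 of the 113 Cck UMIs of control members. The lower Cck and Fmod of IMQ members thus stood beside the absence of this cluster from them. Summed Pi16 in the cluster was 228 CPM in the control and 2953 CPM in IMQ, 12.98-fold higher (8.78 to 19.95).

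**Figure D5:**
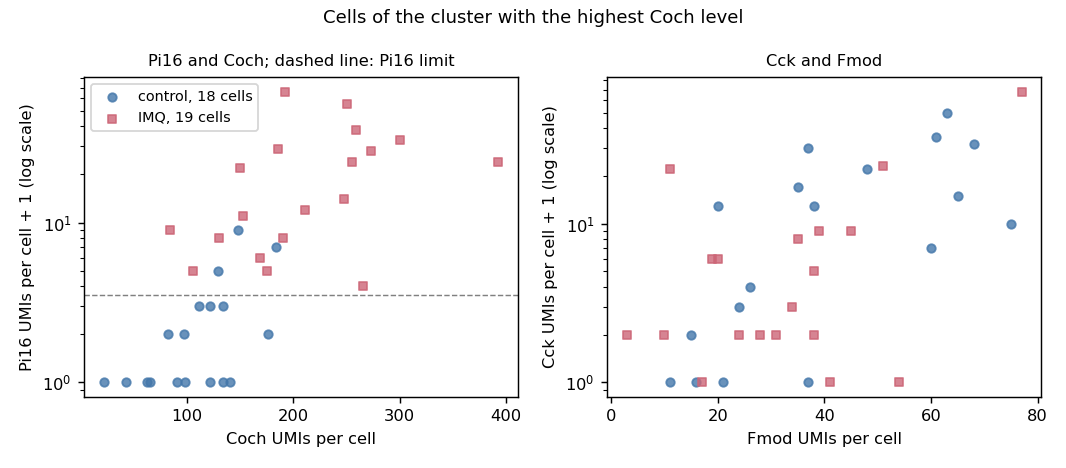
Each point is 1 cell of cluster 7, 18 control (circles) and 19 IMQ (squares). Left, Pi16 UMIs + 1 (log scale) against Coch UMIs, where all 19 IMQ cells and 3 control cells lie above the dashed Pi16 limit, and right, Cck UMIs + 1 (log scale) against Fmod UMIs, where the libraries overlap.

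Between the libraries, the markers differed within cluster 7 as follows. Coch was at 16528 CPM in control and 30856 CPM in IMQ cells, 1.87-fold higher (1.77 to 1.97). Cyp26b1 was at 632 and 1801 CPM, 2.85-fold higher (2.19 to 3.75). Cck was 1.68-fold lower (1.37 to 2.07), with 67 of its 155 IMQ UMIs in 1 cell, and Fmod 1.28-fold lower (1.14 to 1.42). Crabp1 was at 4265 and 4067 CPM, a ratio whose interval, 0.926 to 1.19 as control over IMQ, includes equality. Median depths were 6124 and 6747 UMIs.

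Set against all fibroblasts outside cluster 7, 1129 genes were 2-fold or more higher in its cells in both libraries (9.59% of 11771) and 3.53% lower. The cluster held 118650 control and 129345 IMQ UMIs, so most genes had fewer than 10 UMIs expected there. Cluster over outside, log2 ratios had medians of 0.52 (12372 control genes) and 0.42 (12147 IMQ genes). With at least 10 UMIs expected the medians were 0.093 (1433 genes) and -0.051 (1794 genes). The 1129 is given without that limit and is not read as a measure of enrichment. By the naming rule the first of the higher genes were Cck, Kera, Fmod, Crabp1, Gldn, Mllt3, Enpp2, Emid1, Wif1, Daam2, Adamts9 and Abca8b. Cck was at 2014 CPM in control and 1198 CPM in IMQ cells of the cluster, against 0.594 and 0.420 CPM outside it. Kera, the gene of the proteoglycan keratocan, was at 565 and 387 CPM against 1.43 and 1.14 CPM. Edn3, which encodes the peptide endothelin 3, was at 211 and 688 CPM against 0.552 and 0.819 CPM. Between libraries, 44 of 716 genes were 2-fold or more higher in IMQ cells of the cluster (6.15%) and 43 lower (6.01%). Of those with at least 100 UMIs, the higher included Apod, which encodes a lipocalin, at 177 and 889 CPM, Fibin, and the Wnt receptor gene Fzd2 at 303 and 1136 CPM. The lower included the metallothionein gene Mt1 at 1745 and 348 CPM and Zfp36l1 at 1273 and 247 CPM. Under 100 UMIs, and chosen after their values were seen, the chemokine gene Ccl7 had 78 control and 2 IMQ UMIs, 42.5-fold lower (11.4 to 357), and Cxcl13 had 72 and 0. Ccl7 was thus lower in IMQ cells of cluster 7 and higher in IMQ members, a difference that was not tested. Tnmd, the tenomodulin gene known from tendon, was at 2410.4 and 1051 CPM.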

How the data were processed

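The authors deposited whole-number UMI counts, as a matrix of genes by barcodes, for 1 control and 1 IMQ library. Cell Ranger 5.0.0 wrote the matrices per the file headers, whereas Cell Ranger 3.0.2 is the version, beside Seurat 2.0 and the build mm10, per the submitters' processing notes. Aligner settings and annotation are not given in the sources used here. Control and IMQ libraries held 10857 and 9414 barcodes with at least 500 UMIs and 123088680 and 144054978 UMIs. Members summed to 594328 and 2182381 UMIs.

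Counts were summed over cells and given as CPM with exact Poisson intervals, ratios with exact conditional binomial intervals and shares with Clopper-Pearson intervals, all at 95%. A gene was called at 2-fold or more with at least 50 UMIs over the cells compared, leaving out the 13 genes of the rule. A zero was set at a floor of 3 UMIs per group. The ratio and its intervals were tested on simulated counts, drawn as independent Poisson counts of the summed UMIs. That setting holds no spread between cells or libraries, so it could not test the intervals against such spread. Doublets were marked with Scrublet in scanpy 1.11.5 (422 control and 110 IMQ cells) and kept. Clusters were Leiden clusters (resolution 1, 30 components, 15 neighbours, 2000 variable genes less those of the rule). Free RNA was estimated from markers of other cell types at 3.28% of control and 0.798% of IMQ member UMIs. Gene positions came from GENCODE M21 by gene ID (27645 of 27998 matched), and promoters from RefSeq, where all 9 genes looked up matched. Of 548 entries in 27 gene lists, 8 matched no gene.

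Named genes had at least 100 UMIs over the cells compared and 50 CPM in the higher set, and in the library comparison at least 3 times the level free RNA could give. They were ranked by the interval bound nearest to equality, up to 12 in each direction between libraries and up to 15 higher and 10 lower against other fibroblasts, and the 4 markers, up to 4 genes of each list with the most extreme ratio and its most abundant gene were added. Members, lists and this rule were chosen with earlier results of these data known. Among the genes that this naming rule selects, 1 is not reported here. The tables by cluster used 26 genes chosen after their values were seen. Alternatives were other Coch, collagen, mitochondrial and UMI limits, doublets removed, median-ratio scaling, thinning to 5000 UMIs, each gene's top cell left out and free RNA subtracted. Those chosen after seeing the data were shared clusters, equal weight per member, members without cluster 11, at least 10 UMIs expected and cluster 7 in place of the rule.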

Additional observations from a re-analysis of the deposited data

Results flagged for a closer look

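For 4 named genes the IMQ members and the other fibroblasts went in opposite directions between the libraries by 2-fold or more each. The difference between the 2 sets of cells was not tested, since each condition had 1 library. The other fibroblasts include cells of cluster 7, which hold 615 of their 1618 IMQ Fmod UMIs. The Pi16 limit placed all 19 IMQ cells of that cluster there. In the control, 7 cells of the cluster were members and held 239 of the 273 member Fmod UMIs. Within cluster 7 Fmod was 1.28-fold lower and Wif1 2.17-fold higher in IMQ cells. Fmod had a log2 ratio of -5.33 in members and 1.21 in other fibroblasts, Tnn, a tenascin gene, -3.09 and 1.74, and Wif1 -4.63 and 1.13. Grem1 had 2.96 in members and -2.83 in other fibroblasts, with 87.5% of its 8 control member UMIs in 1 cell. Without the 5 control members of cluster 11 the ratios in members were -6.06, -2.78, -3.79 and 2.42.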

How the results depend on the processing

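The ratio of the members' shares, 3.66, was 5.80 with a collagen limit of 2%, 5.15 without the Pi16, Col11a1, Lrrc15, Acan and Corin limits and 2.03 with cluster 7 in place of the rule. Genes higher and lower in IMQ members, 693 and 771, were 1410 and 1733 at a minimum of 10 UMIs, 264 and 171 at 200 UMIs, and 127 and 203 in the shared clusters. Genes higher than in other fibroblasts in both libraries, 58, were 101 with at least 3 Coch UMIs, 119 at a minimum of 10 UMIs, 24 at 200 UMIs and 6 with at least 10 UMIs expected in the members. Genes lower, 201, were 110 with at least 10 UMIs expected. The other alternatives kept these counts within 1.5 times, though not all with the same genes. Log2 ratios between libraries turned for 12 named genes in the shared clusters (Crabp1 1.14, agouti (a) 2.30, Mfap5 -0.44, Ifi27l2a -1.57, Col23a1 3.25, Ogn -2.04, Tgfbr2 -0.26, Igfbp4 0.14, Lpl -1.92, Has1 -1.41, Tnfaip2 -0.27, Clec3b -0.97), for 6 without cluster 11 (agouti (a) 1.35, Col23a1 0.85, Pappa2 2.09, Igfbp3 3.73, Cd24a 0.61, Serpine2 0.996) and for 2 with equal weight per member (agouti (a) 0.021, Igfbp3 0.041). In the shared clusters the ratios of 54 further named genes moved and those of 13 did not, 43 moved and 55 did not without cluster 11, and 41 moved and 67 did not with equal weight per member. The cause of a changed value was not tested, apart from the smaller set of genes or cells that an alternative leaves by its construction. The alternative of clusters with at least 20 members of each library gave no value, since there was none. No paired analysis was possible because each condition had 1 library. Depth limits all of these counts, with 594328 UMIs over the 65 control members.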
